A study of Mus musculus with 2 samples.

Results

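Runx1, Runx3 and Cbfb are 3 genes of the core-binding factor, described here by their CG methylation in osteoblasts with and without the TET enzymes. The members were chosen by name. For each one the GENCODE M21 gene on GRCm38 was taken with 50 kb on each side, which makes 3 of 21625 protein-coding genes with calls and 661 of 2534629 testable bins of the genome. A bin is a stretch of 200 bp, and it was testable when it held 4 or more CG cytosines, counting both strands, and each library had 4 or more reads per cytosine. Runx1 (ENSMUSG00000022952) runs from 92601466 to 92826149 on the minus strand of chromosome 16. Runx3 (ENSMUSG00000070691) runs from 135120652 to 135177990 on the plus strand of chromosome 4. Cbfb (ENSMUSG00000031885) runs from 105170674 to 105217989 on the plus strand of chromosome 8.

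RUNX proteins bind DNA through the Runt domain, and CBFβ, the product of Cbfb, is the shared partner that does not bind DNA itself but raises the affinity of each RUNX protein for its site. Runx1 is known for its role in blood stem cell formation, Runx3 for T-cell and sensory neuron development and Runx2, the third paralog, for osteoblast differentiation. Each of these Runx genes is transcribed from a distal promoter, P1, and a proximal promoter, P2, which lies in a CpG island and gives proteins with another N-terminus. TET enzymes oxidise 5-methylcytosine, and this oxidation is a route to demethylation.

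Whole-genome bisulfite sequencing was carried out on primary osteoblasts from 3-day-old C57BL/6 mice after 3 days of culture, with 1 library of wild-type cells (WT) and 1 library of cells from mice with Prx1-Cre and floxed alleles of all 3 Tet genes, Tet1fl/fl, Tet2fl/fl and also Tet3fl/fl (TCKO). Prx1-Cre acts in limb and part of the skull mesenchyme, so that cells outside this lineage keep the floxed alleles. With 1 library per genotype there is no replicate, and every p-value and interval given here compares these libraries with respect to counting error and not the genotypes. Each treats single calls as independent, which calls on the same read are not. The WT library held 261062118 calls over 36612212 nuclear CG cytosines, 70.2% of them methylated, and the TCKO library 223581206 calls over 35831384 cytosines, 76.3% methylated. The median was 4 calls per cytosine in both libraries. Over the targeted genes, the 2 kb window with the fewest TCKO calls for its WT calls held 574 WT and 42 TCKO calls in Tet1, 122 and 13 in Tet2, and 162 and 19 in Tet3, while each whole gene kept between 0.784 and 0.819 TCKO calls per WT call. At the most upstream promoter of each marker gene, 3 of 8 osteoblast genes lay below 20% in WT (median 38.1%), 1 of 4 chondrocyte genes (median 26.9%), 0 of 8 haematopoietic genes (median 72.7%) and 0 of 4 endothelial genes (median 64.1%). The lowest haematopoietic value at any promoter was 31.0%, at a downstream promoter of Coro1a. Bisulfite does not separate 5-methylcytosine from 5-hydroxymethylcytosine, so that a level is the sum of both.

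The promoters of these genes are of unlike base composition. The 200 bases before each transcription start site (TSS) are given 5′ to 3′ in the direction of transcription, from the RefSeq GRCm38 genome, since the P1 and P2 promoters, which gained to unlike extents, differ to the eye in their CpG dinucleotides, here in capitals.
Runx1 P1 (chr16:92826150-92826349, minus strand): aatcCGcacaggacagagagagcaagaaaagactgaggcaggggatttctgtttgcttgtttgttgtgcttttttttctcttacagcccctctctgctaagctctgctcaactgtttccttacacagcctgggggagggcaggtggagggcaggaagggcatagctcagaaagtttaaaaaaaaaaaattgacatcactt
Runx3 P1 (chr4:135120452-135120651, plus strand): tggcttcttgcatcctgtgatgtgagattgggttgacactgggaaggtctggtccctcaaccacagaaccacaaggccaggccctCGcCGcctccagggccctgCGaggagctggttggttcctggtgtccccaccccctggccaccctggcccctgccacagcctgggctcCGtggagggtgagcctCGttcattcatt
Runx1 P2 (chr16:92697329-92697528, minus strand): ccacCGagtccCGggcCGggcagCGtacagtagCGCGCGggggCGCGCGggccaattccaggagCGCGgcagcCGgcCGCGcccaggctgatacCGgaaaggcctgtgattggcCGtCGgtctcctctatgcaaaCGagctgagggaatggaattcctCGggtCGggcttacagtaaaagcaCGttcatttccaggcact
Runx3 P2 (chr4:135152296-135152495, plus strand): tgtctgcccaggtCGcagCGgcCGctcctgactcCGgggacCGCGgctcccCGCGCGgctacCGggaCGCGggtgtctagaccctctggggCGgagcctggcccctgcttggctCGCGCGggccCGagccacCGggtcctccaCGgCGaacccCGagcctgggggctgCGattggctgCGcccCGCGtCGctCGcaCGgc
Cbfb promoter (chr8:105170474-105170673, plus strand): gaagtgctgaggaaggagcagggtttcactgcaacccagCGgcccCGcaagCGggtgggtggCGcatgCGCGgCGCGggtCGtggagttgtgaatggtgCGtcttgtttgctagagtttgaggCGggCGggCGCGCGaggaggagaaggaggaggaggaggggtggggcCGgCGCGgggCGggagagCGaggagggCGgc

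These stretches held 1 CpG at Runx1 P1 and 5 at Runx3 P1, against 22 at Runx1 P2, 28 at Runx3 P2 and 21 at Cbfb. Over 1 kb around the TSS the observed to expected CpG ratio was 0.310 and 0.362 at the P1 promoters of Runx1 and Runx3, and between 0.864 and 0.951 at both P2 promoters and at Cbfb. The Runt string AACCACA, searched on both strands, had 2 matches at Runx3 P1 and 1 at Runx1 P1 from 250 bases before to 50 after the TSS, and none at the P2 promoters or at Cbfb, while 5.37% of all 32459 promoters held it. The AP-1 string TGANTCA had no match at any of these promoters and was found at 7.48% of all promoters. A match says only that these letters are in the window.

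Both P1 promoters gained methylation in the library labelled TCKO, and neither P2 promoter moved by more than a few points over its pooled 4 kb window. In the 4 kb around the TSS, pooled over all calls, Runx1 P1 stood at 41.1% in WT (95% Wilson interval 37.5 to 44.8, 694 calls) and at 82.1% in TCKO (78.9 to 84.9, 627 calls). The difference of 41.1 points (Newcombe interval 36.2 to 45.6) lay at percentile 99.9 of all promoters, with an adjusted p of 3.33e-51 (two-sided Fisher's exact test, Benjamini-Hochberg over 32459 promoters). Runx3 P1 stood at 47.1% in WT (463 calls) and at 81.5% in TCKO (459 calls), which is 34.4 points higher (28.5 to 39.97, adjusted p 8.34e-26). The intervals of WT and TCKO did not overlap at either P1 promoter. Of 65 CpGs with calls in both libraries at Runx1 P1, 59 were higher in TCKO and 4 lower, and of 78 at Runx3 P1, 54 were higher and 9 lower.

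Runx1 P2 stood at 3.62% in WT (939 calls) and at 4.89% in TCKO (838 calls), a difference of 1.27 points with an interval from -0.613 to 3.23 (adjusted p 0.307). A further Runx1 start site 1 kb or more downstream, whose window overlaps that of P2, went from 3.53% to 9.12% (adjusted p 2.02e-06). Runx3 P2 stood at 28.8% in WT (624 calls) and at 27.0% in TCKO (470 calls), with an interval of the difference from -7.12 to 3.58 points (adjusted p 0.664). The gain at P1 exceeded that at P2 by 39.8 points at Runx1 (34.5 to 44.7) and by 36.2 points at Runx3 (28.2 to 43.9). The excess depended on the window, and over the 2 kb upstream of the TSS alone it was 15.3 points at Runx1 (6.02 to 24.0) and 30.4 at Runx3 (15.995 to 43.7). From 1 kb upstream to 100 bp past the TSS it was 17.0 points at Runx1 (5.93 to 27.4) and 57.3 at Runx3 (37.6 to 73.0). Runx2 had the same order, with P1 going from 16.3% to 46.4% and P2 from 0.618% to 1.09%, a difference in gain of 29.6 points (24.4 to 34.7).

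**Figure D1:**
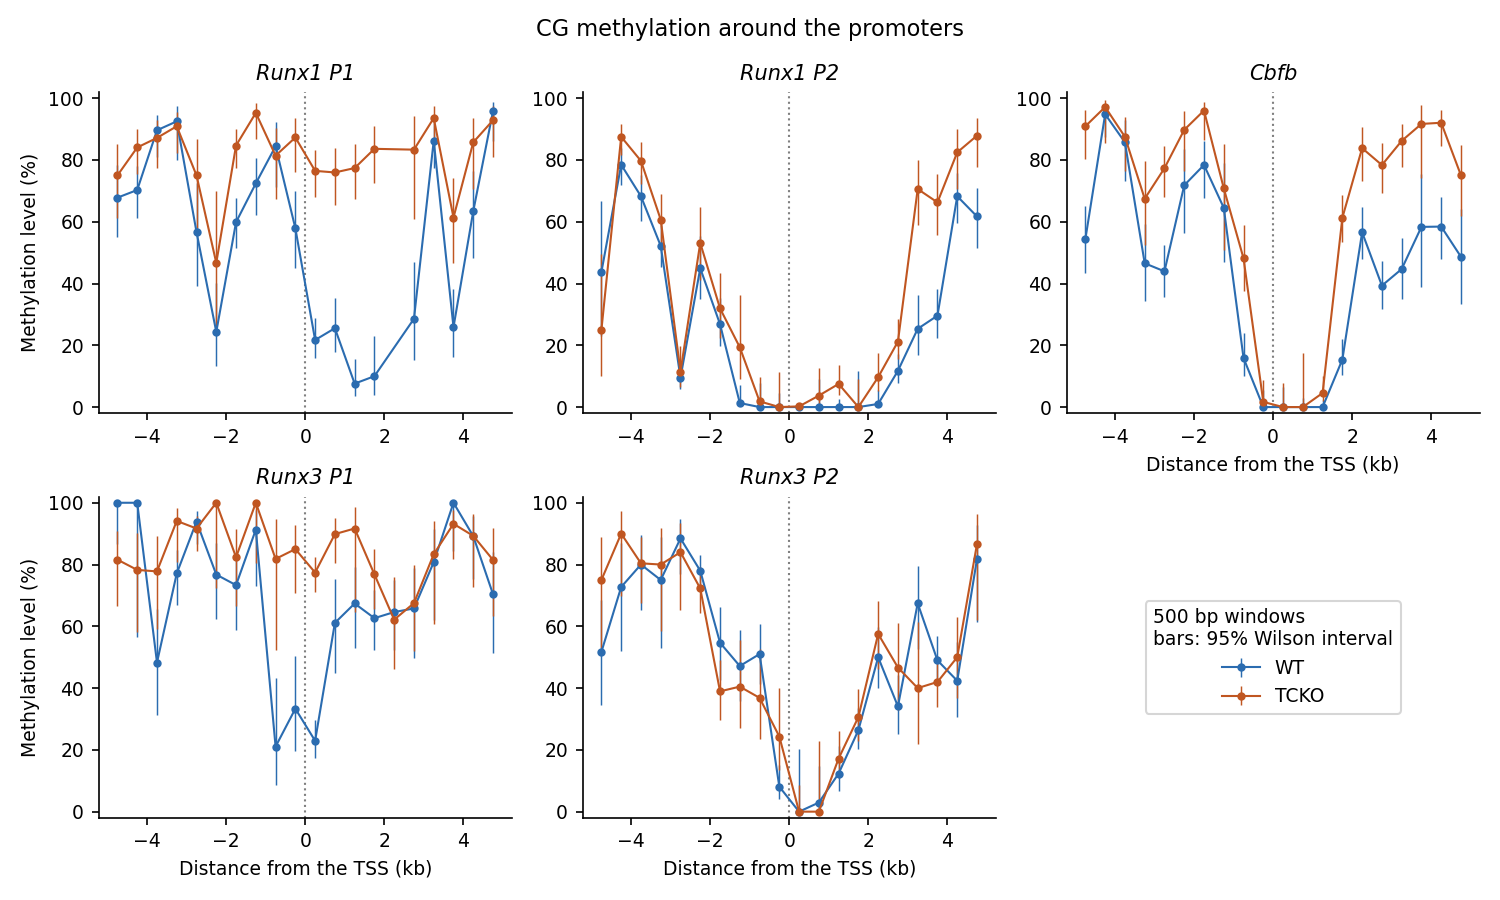
CG methylation level (%) in 500 bp windows against distance from the TSS (kb, in the direction of transcription) at the Runx1, Runx3 and Cbfb promoters, WT in blue and TCKO in orange, with 95% Wilson intervals as bars and windows under 5 calls left out. The WT dip just after Runx1 P1 and around Runx3 P1 is filled in TCKO, while the floors at Runx1 P2 and Cbfb stay near 0 in both libraries. At Runx3 P2 the window just before the TSS stands at 8.08% in WT and 24.3% in TCKO. The window just after it stands at 0% of 15 WT and 0% of 41 TCKO calls.

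The profiles of these promoters show where the calls changed; the windows in this paragraph were set after the profiles were seen. At Runx1 P1 the low stretch of WT lay in the first 3 kb of the gene, from the TSS into intron 2, at 18.9% (396 calls), and the same stretch stood at 77.8% in TCKO (365 calls). The 2 kb before the TSS went from 66.2% to 87.0%. At Runx3 P1 the low stretch ran from 1 kb before to 0.5 kb after the TSS and went from 24.3% (222 calls) to 78.8% (259 calls). The bin that holds the Runx3 P1 start site had 0% of 16 calls methylated in WT and 77.8% of 36 calls in TCKO. In contrast, Runx1 P2 from 1 kb before to 2 kb after its TSS had 0% of 746 WT calls methylated, with an upper limit of 0.512%, and 1.76% of 739 TCKO calls. The stretch below 20% around Runx1 P2 spanned 4.6 kb in WT and 3.4 kb in TCKO, so that both edges moved inward. Runx3 P2 was thinly read, with 1.19 WT and 0.894 TCKO calls per CG cytosine. From 0.5 kb before to 1 kb after this start site 6.08% of 148 WT calls and 9.89% of 91 TCKO calls were methylated. The interval of this pooled difference was -3.04 to 12.2 points. The calls of the libraries fell unevenly within the stretch, so the interval does not bound the change in each part. The 0.5 kb before the start site went from 8.08% of 99 WT calls to 24.3% of 37 TCKO calls. The 0.5 kb after it stood at 0% of 15 WT and 0% of 41 TCKO calls.

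Cbfb has a single CpG-island promoter, and its change was at the edges of the island. The 4 kb window went from 15.3% in WT (767 calls) to 37.7% in TCKO (544 calls), 22.4 points higher (17.6 to 27.2, adjusted p 2.81e-18), or 12.7 points as a mean of cytosine levels. From 0.5 kb before to 1.5 kb after the TSS, however, 0% of 412 WT calls and 2.56% of 234 TCKO calls were methylated. This stretch gave 412 of the 767 WT calls of the 4 kb window but 234 of its 544 TCKO calls. The pooled difference therefore also holds a shift in where the calls fell, which its interval does not cover. The 4 kb window was thinly read, with 1.78 WT and 1.27 TCKO calls per CG cytosine. The stretch from 2 kb to 0.5 kb before the TSS went from 44.8% to 67.1%, and that from 1.5 kb to 5 kb after it from 42.1% (661 calls) to 78.0% (578 calls). This last stretch and the 4 kb window both hold the bin at 105172401, which is 66.5% masked as repeat. It had 18 of 75 WT and 73 of 103 TCKO calls methylated. The placement of its reads is uncertain, and the differences without it were not computed. Over the 2 kb upstream of the TSS, which do not hold it, the difference was 14.5 points. Of the 6 promoters of the members, 3 thus gained 10 points or more, which 24.5% of all promoters did, and 4 were higher at an adjusted p below 0.05, which 38.9% of all promoters were.

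**Figure D2:**
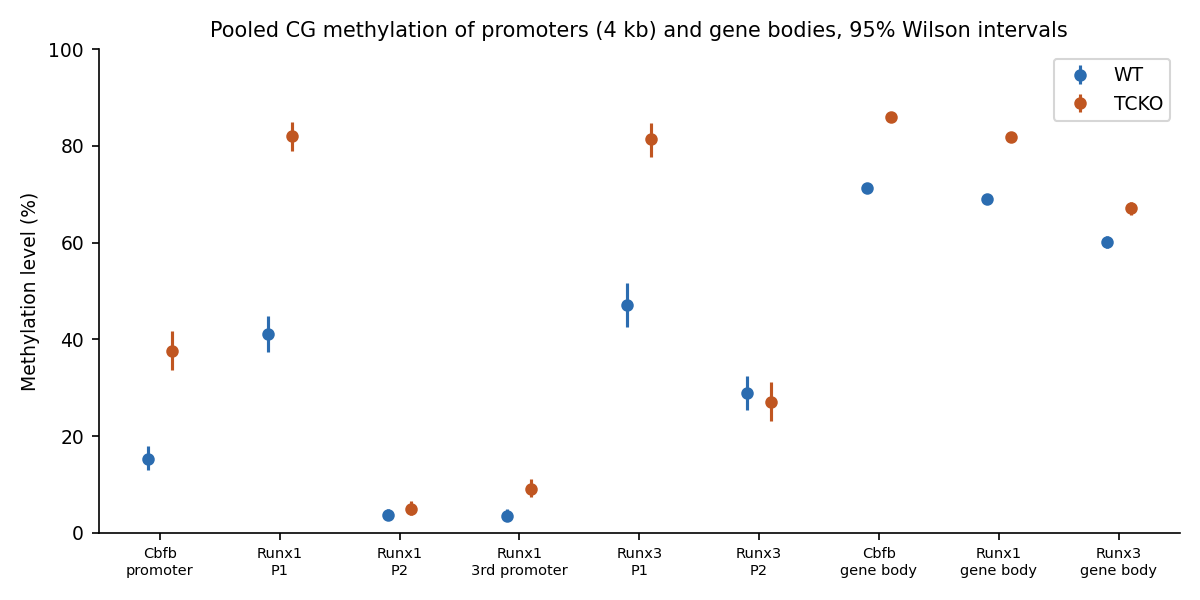
Pooled CG methylation level (%) of the 6 promoters in 4 kb windows and of the 3 gene bodies, WT in blue and TCKO in orange, with 95% Wilson intervals. Runx1 P1, Runx3 P1 and Cbfb stand apart between the libraries, whereas Runx1 P2 and Runx3 P2 have overlapping intervals.

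The bodies of all 3 genes were more methylated in TCKO, to unequal extents. Cbfb went from 71.3% (7413 calls) to 86.1% (6331 calls), a difference of 14.8 points that lay at percentile 96.0 of 21625 genes. Runx1 went from 69.0% (30760 calls) to 81.9% (26563 calls), or 12.9 points at percentile 93.5. Runx3 went from 60.1% (5954 calls) to 67.1% (4617 calls), or 6.95 points with an interval from 5.11 to 8.78, at percentile 62.0. The Fisher adjusted p was 6.55e-13 for Runx3 and smaller for the others. The intervals of Runx1 (12.2 to 13.6) and Cbfb (13.4 to 16.1) lay above that of Runx3. A gain of 10 points or more was thus seen for 2 of 3 members and for 15.4% of all gene bodies. The value of Runx3 changed with the summary, being 10.2 points over cytosines with at least 4 calls in both libraries and 4.20 as a mean of cytosine levels. The body of Runx2 went from 64.9% to 81.3%.

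The flanks followed the genes. The 50 kb upstream of Runx1 went from 75.7% to 86.2% and the 50 kb downstream from 73.8% to 84.5%. At Cbfb the upstream flank went from 66.96% to 76.3% and the downstream flank from 69.5% to 75.3%, and at Runx3 they went from 73.9% to 82.8% and from 76.7% to 80.9%. In 5 kb windows Runx1 was higher in TCKO in 65 of 65, by 0.443 to 42.3 points with a median of 11.3, and the first 5 kb after P1 held the largest difference (37.6% and 79.9%). Cbfb was higher in 27 of 30 windows, between -2.61 and 33.1 points, and Runx3 in 23 of 32, between -14.0 and 24.1 points. Such windows were not counted over the genome. Of testable 200 bp bins, 77.4% were higher in TCKO at Runx1, 75.3% at Cbfb and 73.1% at Runx3, against 68.1% of all. The lowest window difference was from 35 to 40 kb after Runx3 P1, inside the gene. This window went from 58.1% (480 calls) to 44.1% (349 calls), and the window from 25 to 30 kb went from 63.7% to 57.5%. Within the first of them, from 5 to 7 kb after P2, a stretch picked after its values were seen, the level went from 63.7% of 182 calls in WT to 33.1% of 121 calls in TCKO. The 5 kb window from 20 to 25 kb after P1 lies in the part of the intron that holds the best-known haematopoietic enhancer of Runx1. It stood at 83.7% in WT and 90.1% in TCKO. The enhancer itself was not measured, and a 5 kb average does not show shorter stretches.

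**Figure D3:**
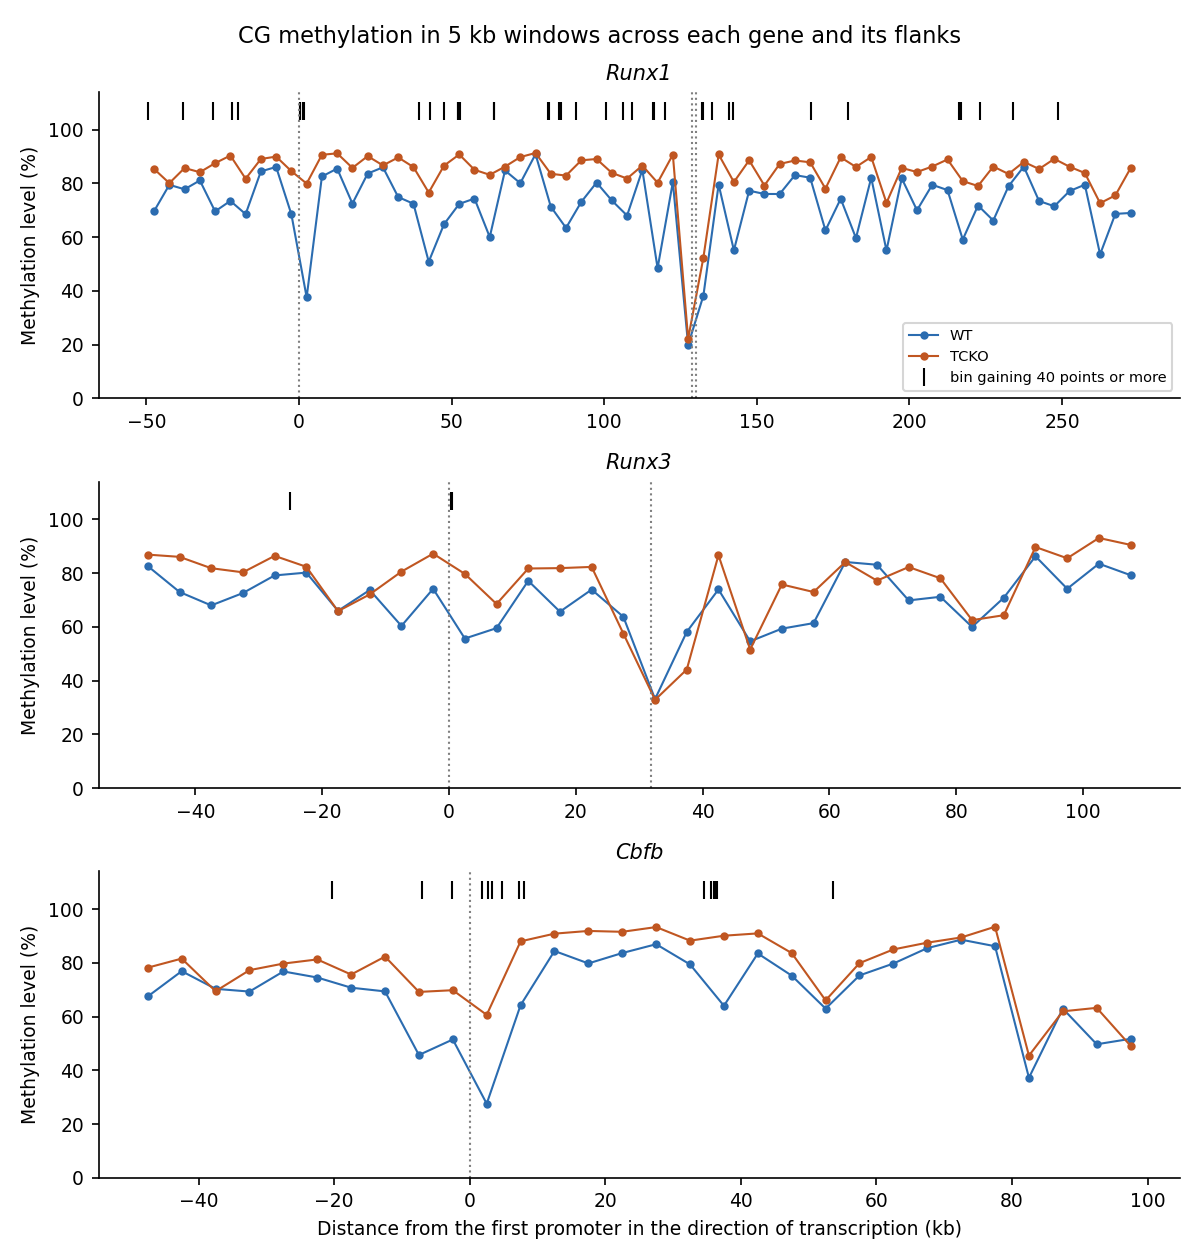
CG methylation level (%) in 5 kb windows against distance from the first promoter (kb, in the direction of transcription) for Runx1, Runx3 and Cbfb, WT in blue and TCKO in orange. Dotted lines mark promoters and black ticks the bins that gained 40 points or more, of which 43 are at Runx1, 3 at Runx3 and 15 at Cbfb.

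Bins that gained 40 points or more were a larger share at Runx1 and Cbfb than over the genome, and at Runx3 their share was near that of the genome. At Runx1 43 of 371 testable bins (11.6%) gained, at Cbfb 15 of 186 (8.06%) and at Runx3 3 of 104 (2.88%), against 3.06% of all testable bins of the genome. All 61 had a Fisher adjusted p below 0.05, the largest being 0.0353, and 2.87% of all testable bins met both criteria. None of the 661 bins lost 40 points, and 1220 of the 2534629 bins of the genome did. Among 20565 protein-coding genes with at least 50 testable bins, gene and flanks, the share lay at percentile 99.6 for Runx1, 97.7 for Cbfb and 65.0 for Runx3, and at 99.9 for Runx2 (83 of 588 bins, 14.1%). Near the threshold, the smallest gain counted at Runx1 was 40.5 points and the largest not counted 38.3, with 40.3 and 35.8 points at Cbfb and 50.9 and 32.6 at Runx3. The order of Runx3 and Cbfb depended on the settings. With a minimum of 1 read per cytosine, 31 of 448 bins gained at Runx3 (6.92%) and 21 of 357 at Cbfb (5.88%), against 4.35% of all bins. With flanks of 100 kb, 15 of 211 gained at Runx3 (7.11%) and 15 of 266 at Cbfb (5.64%). Few bins of the promoter windows were testable at this depth. Of 20 bins in each window, 7 were testable at Runx1 P1 and at the further Runx1 start site, 3 at Runx1 P2, 3 at Runx3 P1, 1 at Runx3 P2 and 4 at Cbfb.

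**Figure D4:**
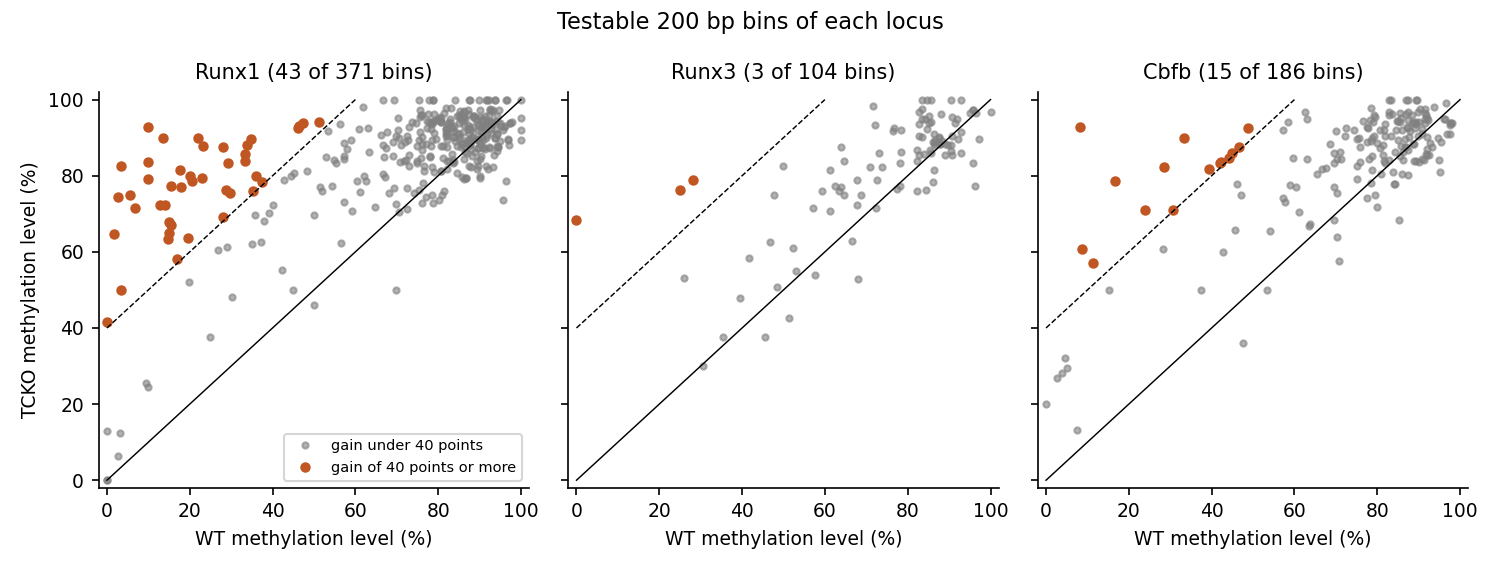
TCKO against WT methylation level (%) of each testable 200 bp bin at Runx1 (371 bins), Runx3 (104) and Cbfb (186), with the line of equal levels solid and a gain of 40 points dashed. Bins over the dashed line are orange, and they lie mainly at WT levels below 50%.

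The bins with the largest gains lay in introns and flanks, and their sequences are given for the plus strand of GRCm38, with CpGs in capitals, to show how few CpGs carried them.
Runx1 intron bin (chr16:92773601-92773800, plus strand): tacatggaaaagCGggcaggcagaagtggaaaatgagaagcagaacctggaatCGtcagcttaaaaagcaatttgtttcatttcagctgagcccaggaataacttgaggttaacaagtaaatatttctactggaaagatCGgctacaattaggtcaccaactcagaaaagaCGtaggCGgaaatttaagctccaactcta
Runx1 bin beside P1 (chr16:92824401-92824600, plus strand): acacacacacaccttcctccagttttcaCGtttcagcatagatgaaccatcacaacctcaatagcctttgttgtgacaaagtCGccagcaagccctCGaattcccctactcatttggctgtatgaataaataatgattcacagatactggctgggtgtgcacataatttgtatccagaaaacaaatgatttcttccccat
Runx1 downstream bin (chr16:92577401-92577600, plus strand): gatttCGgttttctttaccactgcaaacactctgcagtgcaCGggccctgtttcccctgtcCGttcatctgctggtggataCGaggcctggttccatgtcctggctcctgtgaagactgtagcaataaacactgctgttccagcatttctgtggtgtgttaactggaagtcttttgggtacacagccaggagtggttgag
Runx3 upstream bin (chr4:135095401-135095600, plus strand): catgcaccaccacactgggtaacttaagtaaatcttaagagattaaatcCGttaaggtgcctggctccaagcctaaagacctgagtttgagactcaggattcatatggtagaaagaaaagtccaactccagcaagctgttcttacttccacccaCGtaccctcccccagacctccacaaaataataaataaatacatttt
Cbfb intron bin (chr8:105207001-105207200, plus strand): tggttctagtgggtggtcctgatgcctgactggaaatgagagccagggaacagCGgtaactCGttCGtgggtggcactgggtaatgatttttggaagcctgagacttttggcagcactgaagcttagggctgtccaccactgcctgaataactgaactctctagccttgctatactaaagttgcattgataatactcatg

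In intron 2 of Runx1, between P1 and P2, 4 adjacent bins from 92773401 to 92774200, about 52.6 kb downstream of P1, went together from 7.76% of 219 calls in WT to 82.9% of 217 calls in TCKO. The 14 CpGs of this 800 bp stretch, chosen for the gain of its bins, had levels from 0% to 36.4% in WT and from 64.7% to 100% in TCKO. Its bin at 92773601 had 4 of 118 calls methylated in WT and 81 of 98 in TCKO (79.3 points, adjusted p 1.19e-32). The neighbouring bins at 92773401 and 92773801 gained 76.5 and 71.9 points. The largest gain of the Runx1 locus was in the downstream flank at 92577401, with 6 of 60 calls methylated in WT and 38 of 41 in TCKO, or 82.7 points.

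Close to Runx1 P1, 4 bins gained. In intron 2, the bins at 92824401 and 92824601 went from 4 of 40 methylated calls to 51 of 61 and from 3 of 55 to 39 of 52. At 92825601, over exon 2, and 92825801, in intron 1, the levels rose from 14.1% to 72.3% and from 15.5% to 77.3%. Another 800 bp run in intron 2, at 92740201 to 92741000, went from 22.3% of 296 calls to 70.8% of 281. In all, 24 of 160 testable bins of intron 2 gained. Of the 43 bins that gained at Runx1, 39 lay more than 2 kb and 35 more than 10 kb from any Runx1 promoter. How many of the 371 testable bins lie as far was not counted, so these counts show no preference for distant bins.

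At Runx3 the adjacent bins at 135120801 and 135121001, in exon 1 just after the P1 start site, went from 24 of 96 methylated calls in WT to 83 of 109 in TCKO and from 23 of 82 to 75 of 95. The first of them is 55.5% masked as repeat, so that the placement of its reads is uncertain. The only other bin was in the upstream flank at 135095401, about 25.2 kb before P1, with 0 of 35 calls methylated in WT (up to 9.89%) and 13 of 19 in TCKO. It rests on 2 CpGs. No other testable bin of Runx3 gained 40 points.

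At Cbfb 10 of the 15 bins that gained lay in introns 2 and 5. In intron 5, the 600 bp from 105206601 to 105207200, about 36 kb downstream of the promoter, went from 11.8% of 144 calls to 81.3% of 139 calls. Its last bin, at 105207001, had 5 of 61 calls methylated in WT and 51 of 55 in TCKO, which at 84.5 points was the largest gain of the 3 loci. The bins at 105206801 and 105206601 gained 62.0 and 52.2 points. In intron 2, 5 of 11 testable bins gained, from the island edge at 105172401 (24.0% to 70.9%) to 105177801 (33.3% to 90.0%). The first of these overlaps Gm22063, a small nuclear RNA gene, a class with many near-identical copies, and is 66.5% masked as repeat, so that the placement of its reads is uncertain. In the upstream flank, the bin at 105163601, which is 58% repeat, gained 53.8 points on 35 WT and 17 TCKO calls. Among all 61 bins of the members, 5 were more than 50% repeat, against 111 of the 661 testable ones.

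A gain of 40 points needs a WT level of 60% or less, and the bins were therefore also compared within classes of WT level. Of testable bins below 20% in WT, 22 of 30 gained at Runx1 (73.3%), 4 of 11 at Cbfb and 1 of 1 at Runx3, against 37.1% of all such bins. Of bins between 20% and 50% in WT, 20 of 36 gained at Runx1, 11 of 18 at Cbfb (61.1%) and 2 of 11 at Runx3 (18.2%), against 19.7% of all. Of the 8 low Runx1 bins that did not gain 40 points, 6 lay within 2 kb of a promoter, as did 4 of the 22 that gained. Adjacent bins share reads and CpGs, so these counts are descriptions. The bins that gained held 2 to 9 CpGs, with a median of 3, which was also the median of all testable bins of the members.

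**Figure D5:**
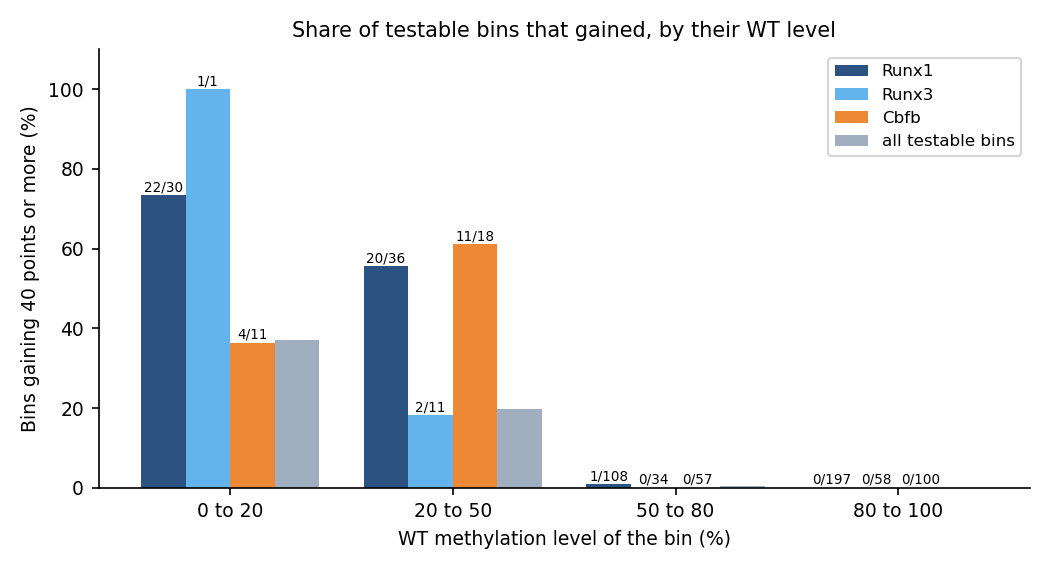
Share of testable bins that gained 40 points or more (%), by WT level of the bin (%), for Runx1, Runx3, Cbfb and all testable bins, with counts over the bars. Below 20% the bar of Runx1 (22 of 30) stands above that of all bins (37.1%), while that of Cbfb (4 of 11) is at its height.

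The Runt string AACCACA, on both strands, was in 4 of the 61 bins that gained (6.56%), against 5.00% of all testable bins and 8.94% of all bins that gained in the genome. The AP-1 string TGANTCA was in 7 of 61 (11.5%), against 5.80% and 12.8%. At Runx1 alone 3 of 43 bins held the Runt string, including the one at 92825801 beside P1, and 6 of 43 the AP-1 string, including the bins at 92824401 and 92825601.

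The promoters of coding genes around the members ranged from a difference of 0.742 to 15.0 points. Clic4, a chloride channel family gene downstream of Runx3, had a promoter at 6.39% in WT and 7.48% in TCKO (adjusted p 0.550). Of the coding genes near Cbfb, Ces4a stood at 67.6% and 68.3% (adjusted p 0.920). The shared promoter window of Tradd, an adaptor of TNF receptor signalling, and Fbxl8, an F-box gene, went from 46.0% of 548 calls to 61.0% of 405 calls (Fisher adjusted p 4.29e-05), and that of B3gnt9 from 34.9% to 44.0% (adjusted p 0.0180). The 2 promoters of D230025D16Rik went from 43.0% to 47.4% (adjusted p 0.255) and from 85.5% to 86.9% (adjusted p 0.655).

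RUNX partners and cofactors were taken as a list of 26 genes, namely Runx2, Groucho and ETO family corepressors, acetyltransferases, haematopoietic and skeletal cofactors and other chromatin regulators. All 26 were measured, with 60 promoters. Of these, 14 promoters of 13 genes (23.3%) gained 10 points or more, near the 24.5% of all promoters, and 27 (45.0%) were higher at an adjusted p below 0.05, against 38.9%. The median difference was 5.39 points, beside 4.91 over all promoters. The gains of these 14 ranged from 10.2 points to the 30.1 points of Runx2 P1. The other 13 were no higher than 15.8 points, and thus all below the gains of Runx1 P1, Runx3 P1 and Cbfb in the pooled 4 kb windows. As a mean of cytosine levels Cbfb gained 12.7 points, a summary that was not made for the list. The 4 kb window of Cbfb also holds the bin at 105172401, whose read placement is uncertain. The place of Cbfb above these 13 promoters is therefore not settled. One promoter lost 10 points or more, that of Msx2, a homeobox gene of skull development (a difference of -12.0 points), which 1.65% of all promoters did.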

How the data were processed

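The authors aligned bisulfite reads to GRCm38 with BSMAP 2.74, keeping uniquely mapped reads. The submitters' processing notes also name CASAVA. Removal of duplicates is not given in the sources used here. The deposited values are counts per CG cytosine, methylated calls and all calls, with no normalization. All positions fell on reference CGs.

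The level of a region is the sum of its methylated calls divided by the sum of its calls. Promoters were the 4 kb around the most upstream coding TSS of each cluster of starts less than 1 kb apart (GENCODE M21), and bodies whole genes. Regions needed 20 calls in each library, and bins at least 4 CG cytosines and 4 reads per cytosine on average. WT and TCKO, 1 library each, were compared by the two-sided Fisher's exact test with Benjamini-Hochberg adjustment over all promoters, genes or bins. Intervals are 95% Wilson, for differences Newcombe. They and the tests treat each call as independent, which calls on the same read are not, and duplicate reads may remain. They may thus understate the counting error, and they cover no variation between animals. The test of bins was checked on simulated calls drawn independently, which does not show that its p-values hold for calls that share reads. Python 3.11.15 with numpy 2.4.6, pandas 2.3.3 and numba 0.67.0 was used.

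The members and lists were chosen with earlier results of these data known. Named bins were the 5 largest gains of each locus at an adjusted p below 0.05 and those within 2 kb of a promoter; 800 bp runs were named after their values were seen. Alternatives were other promoter windows, site means, depth minima, shifted bins, flanks, thresholds and single strands.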

Additional observations from a re-analysis of the deposited data

How the results depend on the processing

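With 1 library per genotype no replicate could be left out, and no paired analysis was possible because there were no pairs of libraries. Of 63 alternative values, 31 moved by less than the counting interval (or 1.5 times for counts) and 32 by more. No promoter or gene body that gained 10 points or more changed its direction under any of them, and the cause of the changes was not tested. The difference at Runx3 P2, -1.82 points in the main setting, did change its sign. It was 3.31 points from 1 kb upstream to 100 bp downstream and 1.82 as a mean of cytosine levels. Over the 2 kb upstream it was -1.75, and on plus strand cytosines -5.45. Over the 2 kb upstream of the TSS alone, the difference was 20.9 points at Runx1 P1, 5.52 at P2, 1.85 at the further start site and 14.5 at Cbfb. With a window of 1 kb upstream and 100 bp downstream, the values were 17.4 points at Runx1 P1, 3.41 at the further Runx1 start site and 60.6 at Runx3 P1. As a mean of cytosine levels it was 3.61 at Runx1 P2, 25.3 at Runx3 P1 and 12.7 at Cbfb. On plus strand cytosines, a split chosen after seeing the data, it was 55.0 at Runx1 P1, 3.24 at the further Runx1 start site and 20.6 at Runx3 P1, and on minus strand cytosines 36.1, 10.4 and 43.3, with 5.48 at Runx1 P2 and 6.90 at Runx3 P2. As means of cytosine levels the gene body differences were 13.9 (Runx1), 16.5 (Cbfb) and 4.20 points (Runx3), with at least 4 calls in both libraries 13.4 (Cbfb) and 10.2 (Runx3), and without the promoters 13.1 (Cbfb). With a minimum of 1 read per cytosine, the count of bins gaining 40 points was 108 of 1014 at Runx1 (10.7%) and 31 of 448 at Runx3 (6.92%). Of all bins, 4.35% gained at this setting. With a minimum of 10 reads it was 3 of 54 at Runx1 (5.56%), 0 of 11 at Runx3 and 2 of 33 at Cbfb (6.06%), against 1.91% of all bins. Few bins then remained, and the share at Runx1 was also below the 11.6% of the main setting. A flank of 100 kb gave 15 of 211 at Runx3 (7.11%), against 3.06% of all bins. A threshold of 50 points gave 27 of 371 at Runx1 (7.28%) and 5 of 186 at Cbfb (2.69%), against 1.55% of all bins. Depth limits the CpG islands most.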
